A study of Rattus norvegicus with 60 samples.

Results

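The mitochondrially encoded genes of the rat kidney are described here across 2 kidney regions, 2 genotypes and 3 diet conditions. They were taken as every row of the deposited gene table that lies on the mitochondrial chromosome, which gave 37 of 32545 genes. Of these, 13 encode proteins, 2 are annotated as mitochondrial rRNA genes and 22 as mitochondrial tRNA genes. The rule uses the position of a gene and no measured value of it.

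The study sequenced RNA from the kidneys of NOX4 rats, which are knockout derivatives of the Dahl salt-sensitive strain, and from its wild-type animals (SS). NOX4 is an NADPH oxidase that makes hydrogen peroxide and is abundant in kidney tubules, and Dahl salt-sensitive rats become hypertensive on high-salt diets. Outer medulla and cortex were taken under control conditions (LS in the labels), after 7 days (HS7) and after 21 days (HS21) on a 4.0% NaCl diet, with 5 libraries in each of the 12 groups and 60 libraries in all. All groups share the Dahl salt-sensitive background, so the SS groups are themselves salt-sensitive animals. The labels give no sex, no age, no knockout allele or breeding scheme, no salt content of the control diet and no statement that the 5 libraries are 5 animals, so p-values measure the spread between these libraries.

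Mitochondrial DNA is a small circular genome present in many copies per cell. Both of its strands are transcribed into long precursors, and cutting out the tRNAs that punctuate them releases the rRNAs and mRNAs. Its proteins are core subunits of respiratory complexes I, III, IV and V, which work only together with many subunits encoded in the nucleus. Kidney tubules that reabsorb much sodium, the proximal tubule of the cortex and the thick ascending limb of the outer medulla, are rich in mitochondria. The libraries were enriched for poly(A) RNA, and most mammalian mitochondrial mRNAs carry short poly(A) tails whereas tRNAs do not.

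Libraries held between 11.5 M and 29.6 M counts (M, 1e6). Levels are in CPM, counts scaled to 1e6 per library with TMM factors. Nox4 in cortex ranged from 61.9 to 87.5 CPM in the 15 libraries of NOX4 rats and from 282 to 603 CPM in those of SS rats, and its log2 fold change was -2.25 at LS, -2.70 at HS7 and -2.26 at HS21, each past the test. In the outer medulla, where it was at 1.64 to 13.6 CPM in NOX4 and 5.42 to 101 CPM in SS rats, only the HS7 difference passed (-2.62, adjusted p = 0.0104). There SS libraries 3 and 4 were highest, at 101 and 34.5 CPM against 5.54 to 11.4 CPM in the other 3. The mean log2(CPM + 1) of 10 proximal tubule segment 1 and 2 markers, which mark cortex, was 8.29 and 5.95 in these 2 libraries and 3.77 to 4.97 in the other 3. The proximal tubule marker Slc34a1 ranged from 24.1 to 3179 CPM in outer medulla and from 3457 to 7448 CPM in cortex, and the thick ascending limb marker Slc12a1 from 1473 to 5254 CPM in outer medulla and from 312 to 1041 CPM in cortex. A set of 11 libraries stood apart by low complexity: thinned to 10 M counts they detected 14086 to 16116 genes, against 16887 to 18368 genes in the other libraries. These 11 libraries were all from SS rats, 3 at LS and 3 at HS7 in the outer medulla and 3 at LS and 2 at HS7 in the cortex, and the main counts of called members are given with and without them, here or under the alternatives.

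The 13 protein genes, each called an mRNA here, made up 99.0% of all mitochondrial counts, both rRNA genes together 0.898% and the 22 tRNA genes together 0.0732%. The word mRNA stands for a gene here, as counts per gene do not show whether overlapping genes share a transcript. Mt-co1, the catalytic core subunit of complex IV, alone held 35.8% of the mitochondrial counts and had the highest mean count of all genes in the table. Mt-atp6 (complex V) ranked 2, Mt-cox3 (complex IV) 4, Mt-cytb (complex III) 5, Mt-co2 (complex IV) 6, Mt-nd1 7 and Mt-nd2 8 (both complex I). Each of these 7 genes had counts in every library, as did the other 6 mRNAs and both rRNA genes.

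Per length, Mt-co1 lies highest and Mt-atp8 lowest among the mRNAs. Mt-co1, which occupies positions 5323 to 6867 of the mitochondrial chromosome, had a level of 22394 ± 4293 CPM per kb in outer medulla and 35873 ± 4187 CPM per kb in cortex (SD, n = 30 libraries each). It was followed in both regions by Mt-atp6, Mt-cox3, Mt-co2, Mt-cytb, Mt-nd1 and Mt-nd2, with Mt-nd2 at 5152 ± 1150 CPM per kb in outer medulla and 6570 ± 1261 CPM per kb in cortex. Some neighbours in the order of means were closer than 1 SD: Mt-co1 and Mt-atp6, Mt-atp6 and Mt-cox3, Mt-nd3 and Mt-nd4l, and Mt-nd5 and Mt-nd6 in outer medulla, and Mt-cox3 and Mt-co2, Mt-nd3 and Mt-nd4l, and Mt-nd3 and Mt-nd5 in cortex. Mt-atp6 and Mt-cox3 in outer medulla, for example, were at 19559 ± 4472 and 16942 ± 3380 CPM per kb.

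Mt-nd4, a subunit of the proton-pumping arm, had a level of 847 ± 251 CPM per kb in outer medulla and 1183 ± 290 CPM per kb in cortex. Mt-nd4l, with which it shares 7 bases, had 2859 ± 633 CPM per kb in outer medulla and 3925 ± 686 CPM per kb in cortex. Mt-atp8, a small complex V subunit, had 102 ± 52.3 CPM per kb in outer medulla and 177 ± 121 CPM per kb in cortex although it shares 43 bases with Mt-atp6. The sources used here do not say how reads over shared bases, on either strand or with several matches (nuclear copies of mitochondrial DNA) were counted, so the levels of these overlapping genes are uncertain. The same holds for Mt-nd6, the only mRNA on the minus strand, which shares 23 bases with Mt-nd5 on the plus strand and had 1614 ± 456 CPM per kb in outer medulla and 2353 ± 464 CPM per kb in cortex.

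**Figure D1:**
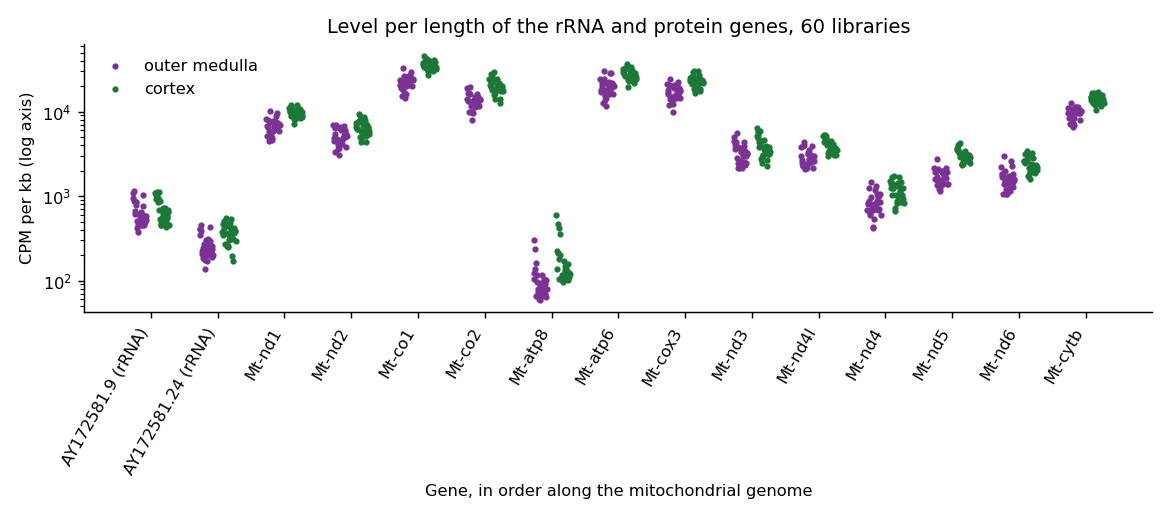
Level per length (CPM per kb, log axis) of the rRNA and protein genes in order along the mitochondrial genome, with 1 point per library, 30 from outer medulla on the left of each gene and 30 from cortex on the right. Mt-co1 averages 22394 CPM per kb in outer medulla and 35873 CPM per kb in cortex, and Mt-atp8 averages 102 and 177 CPM per kb in those regions.

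The rRNA genes are named only by identifiers in the table. The shorter one, AY172581.9 (958 bases, positions 68 to 1025), had 647 ± 210 CPM per kb in outer medulla and 703 ± 220 CPM per kb in cortex. The longer one, AY172581.24 (1571 bases, positions 1094 to 2664), had 263 ± 84.8 CPM per kb in outer medulla and 368 ± 98.1 CPM per kb in cortex. The ratio of their counts, shorter over longer, was 1.53 ± 0.353 in outer medulla and 1.19 ± 0.302 in cortex (SD, n = 30 each). Poly(A) enrichment removes most ribosomal RNA, so these levels describe what passed that step. Relative to the summed mitochondrial mRNA counts, AY172581.9 varied with a coefficient of variation of 27.9% in outer medulla and 24.3% in cortex. Mt-co1 varied by 5.16% in outer medulla and 4.04% in cortex.

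The tRNA genes are 60 to 75 bases long and gave few counts, between 706 and 2818 per library. One tRNA gene, AY172581.13, had no count in any library, and 4 had counts in all 60. AY172581.2 alone held 0.0569% of the mitochondrial counts, most of the tRNA total. Filtering on low counts left 13 mRNA, 2 rRNA and 10 tRNA genes in the outer medulla and 13 mRNA, 2 rRNA and 13 tRNA genes in the cortex, so 25 and 28 members were tested and the other tRNA genes were not.

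The regions were compared within each genotype over all diets. The mRNAs were lower in outer medulla than in cortex. In SS rats 23 of 28 tested members were lower and 1 higher in outer medulla. Of all 16326 genes tested, 64.8% were called in SS rats, 31.9% as lower and 32.9% as higher (edgeR quasi-likelihood test with Benjamini-Hochberg adjustment). In NOX4 rats 21 members were lower and none higher, with 60.7% of all genes called, 28.4% as lower and 32.3% as higher. Without the low-complexity libraries 21 of 29 members were lower and none higher in SS rats, and 25 of 29 were lower in NOX4 rats. The shares of all genes called in that fit are not given here. All 13 mRNAs fell in SS rats and 12 in NOX4 rats, with Mt-nd3 not passing in NOX4 rats at -0.15. Most genes differed between these regions, so the count of members is read only beside these shares.

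Mt-nd5, the large proton-pumping subunit of complex I, ranged in SS rats from 2102 to 4978 CPM with a mean of 3096 CPM in outer medulla, and averaged 5803 CPM in cortex (log2 fold change -0.91, SE 0.08, adjusted p = 5.29e-15, 15 libraries each). In NOX4 rats it averaged 3177 CPM in outer medulla and 5266 CPM in cortex, with a log2 fold change of -0.73 (SE 0.08, adjusted p = 7.18e-12). The 15 outer medulla libraries of NOX4 rats all lay below the 15 cortex libraries, while those of SS rats overlapped, the highest outer medulla value being that of SS HS7 library 3. Mt-co1 fell by 0.84 on the log2 scale in SS rats and by 0.54 in NOX4 rats, and Mt-cytb fell by 0.66 in SS rats and by 0.48 in NOX4 rats.

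Among the tRNA genes, AY172581.7 averaged 1.44 CPM in outer medulla of SS rats, and its log2 fold change against cortex was -1.64 in SS rats and -1.68 in NOX4 rats (adjusted p = 5.34e-11 and 2.37e-11). The shorter rRNA gene did not pass in either genotype (-0.20 in SS and -0.02 in NOX4 rats), and the longer one fell in both (-0.50 and -0.52). The nuclear subunits moved in the same direction: of 31 tested complex I genes, 30 were lower in outer medulla in SS rats and 15 in NOX4 rats, and of 34 genes of complexes III to V, 30 and 20. The scaling weighs on these sizes. With library totals in place of TMM factors the median of all genes moved to 0.42 in SS and 0.36 in NOX4 rats, 17 members in SS and 11 in NOX4 rats were still lower, and Mt-nd3 in both genotypes and Mt-nd2 and Mt-nd4 in NOX4 rats changed sign.

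The share of all counts taken by the 37 genes was 8.16% to 16.4% over the 60 libraries and averaged 11.4 ± 1.67% in outer medulla and 13.3 ± 1.53% in cortex (SD, n = 30 each). In bulk tissue, fewer mitochondria-rich cells and less mitochondrial RNA per cell cannot be told apart. The share is a sum over the members and was not tested. It was lowest in outer medulla of SS rats at HS21.

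**Figure D2:**
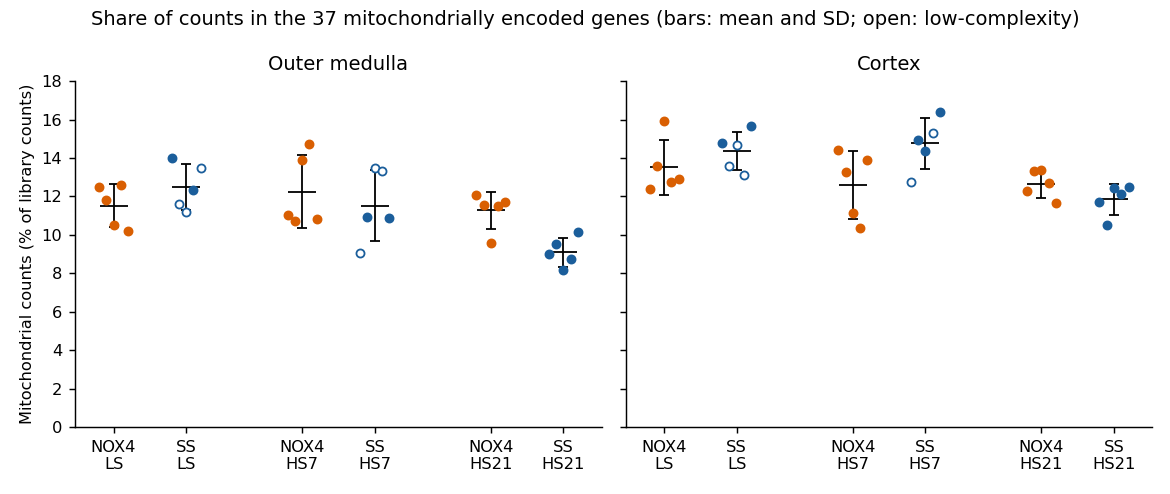
Percent of library counts in the 37 mitochondrially encoded genes, 1 point per library, with mean and SD bars, for outer medulla (left) and cortex (right), open symbols marking low-complexity libraries. In SS rats the HS21 libraries, at 8.16% to 10.1% in outer medulla and 10.5% to 12.5% in cortex, lie below all LS libraries, at 11.2% to 14.0% and 13.1% to 15.7%.

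The first question of the diet comparisons was how SS rats at HS21 differed from those at LS. Mitochondrial transcripts were lower at HS21 in both regions. The labels give no day for LS, so diet and time cannot be told apart. In each region 3 SS LS libraries, but no HS21 library, were low-complexity. In the cortex 18 of 28 tested members were lower at HS21 than at LS and none was higher, and in the outer medulla 13 of 25 were lower and none higher. Over all genes, 16.5% were called in the cortex, 8.04% as lower and 8.41% as higher, and 9.86% in the outer medulla, 4.56% as lower and 5.29% as higher. The 18 cortical members were all 13 mRNAs, both rRNA genes and 3 tRNA genes, and the 13 in the outer medulla were 9 mRNAs, both rRNA genes and 2 tRNA genes. The median log2 fold change of the 13 mRNAs was -0.60 in outer medulla and -0.51 in cortex, against 0.02 and 0.01 over all genes tested.

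The shorter rRNA gene had the smallest adjusted p of all members in the cortex. AY172581.9 had 515, 431, 441, 460 and 506 CPM at HS21, against 1050, 981, 883, 1074 and 1012 CPM at LS. The groups did not overlap, and the log2 fold change was -1.09 (SE 0.12, adjusted p = 2.71e-06). Its outer medulla levels were 487, 436, 361, 445 and 473 CPM at HS21, against 1052, 901, 834, 1093 and 641 CPM at LS. These groups did not overlap either (-1.06, SE 0.19, adjusted p = 0.000912). The longer rRNA gene AY172581.24 had 421, 274, 215, 385 and 325 CPM at HS21 in the outer medulla, against 638, 649, 550, 719 and 606 CPM at LS (-0.99, SE 0.18, adjusted p = 0.000908). In the cortex its groups overlapped in 1 library of each, and it fell by 0.64 (adjusted p = 0.0405).

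All 7 complex I mRNAs fell in the cortex and 5 in the outer medulla. Mt-nd3, a small membrane subunit, had 949, 847, 1011, 1064 and 1064 CPM at HS21 in the cortex, against 2209, 1801, 1854, 1996 and 1705 CPM at LS. Its groups lay far apart, with a log2 fold change of -0.96 (SE 0.12, adjusted p = 7.76e-06). Mt-nd5 had 4332, 4238, 4413, 4640 and 4414 CPM at HS21 and 6700, 6487, 7357, 6494 and 7595 CPM at LS (-0.66, SE 0.09, adjusted p = 2.67e-05). Mt-nd4l, another membrane subunit, had 958, 885, 1022, 973 and 950 CPM at HS21, against 1531, 1280, 1570, 1370 and 1553 CPM at LS (-0.61, SE 0.09, adjusted p = 3.56e-05). For all 3 genes every HS21 library lay below every LS library, and the HS21 libraries varied less than the LS libraries.

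Mt-nd6, transcribed from the other strand, fell with them. It had 910, 932, 1119, 833 and 1001 CPM at HS21 in the cortex, against 1352, 1350, 1638, 1278 and 1356 CPM at LS (-0.54, SE 0.12, adjusted p = 0.00289). Its levels in outer medulla were 631, 543, 546, 582 and 759 CPM at HS21 and 1151, 946, 882, 948 and 915 CPM at LS (-0.68, SE 0.20, adjusted p = 0.0324). Its groups did not overlap in either region.

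Mt-co1 changed least among the mRNAs in both regions. In the cortex it had 49736, 41981, 47089, 50966 and 51590 CPM at HS21, against 57478, 54359, 57112, 51475 and 69997 CPM at LS. The groups overlapped in 1 library of each, and the log2 fold change was -0.27 (SE 0.09, adjusted p = 0.0463). In the outer medulla it had 24799, 25190, 22129, 25287 and 30960 CPM at HS21 and 36286, 31627, 29154, 34453 and 35990 CPM at LS, which did not pass (-0.40, SE 0.15, adjusted p = 0.0754). The other 2 complex IV mRNAs and Mt-cytb of complex III fell in both regions.

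Mt-atp8, whose level is uncertain because it shares bases with Mt-atp6, moved most among the mRNAs by estimate. In the outer medulla it had 14.8, 14.5, 12.5, 11.9 and 14.6 CPM at HS21, against 61.7, 21.2, 25.4, 48.3 and 28.02 CPM at LS. The groups did not overlap (-1.45, SE 0.24, adjusted p = 0.000529), and the LS libraries differed among themselves far more than the HS21 libraries. In the cortex it had 21.6, 22.1, 23.5, 22.5 and 19.5 CPM at HS21 and 121, 45.8, 28.02, 43.7 and 94.4 CPM at LS (-1.61, SE 0.30, adjusted p = 0.000873). Mt-atp6, its neighbour in complex V, fell by 0.41 in the cortex and was at -0.49 in the outer medulla, where it did not pass (adjusted p = 0.0759).

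Of the tRNA genes, AY172581.16 lies between Mt-nd3 and Mt-nd4l, at positions 9800 to 9867. In the outer medulla it had 1.55, 1.99, 1.35, 0.759 and 1.22 CPM at HS21, against 6.56, 9.27, 2.93, 9.38 and 8.96 CPM at LS (-2.44, SE 0.47, adjusted p = 0.00173). The groups did not overlap, although these levels rest on few counts, between 15 and 251 in any library. AY172581.2 also fell in both regions (-0.97 in outer medulla and -0.64 in cortex).

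**Figure D3:**
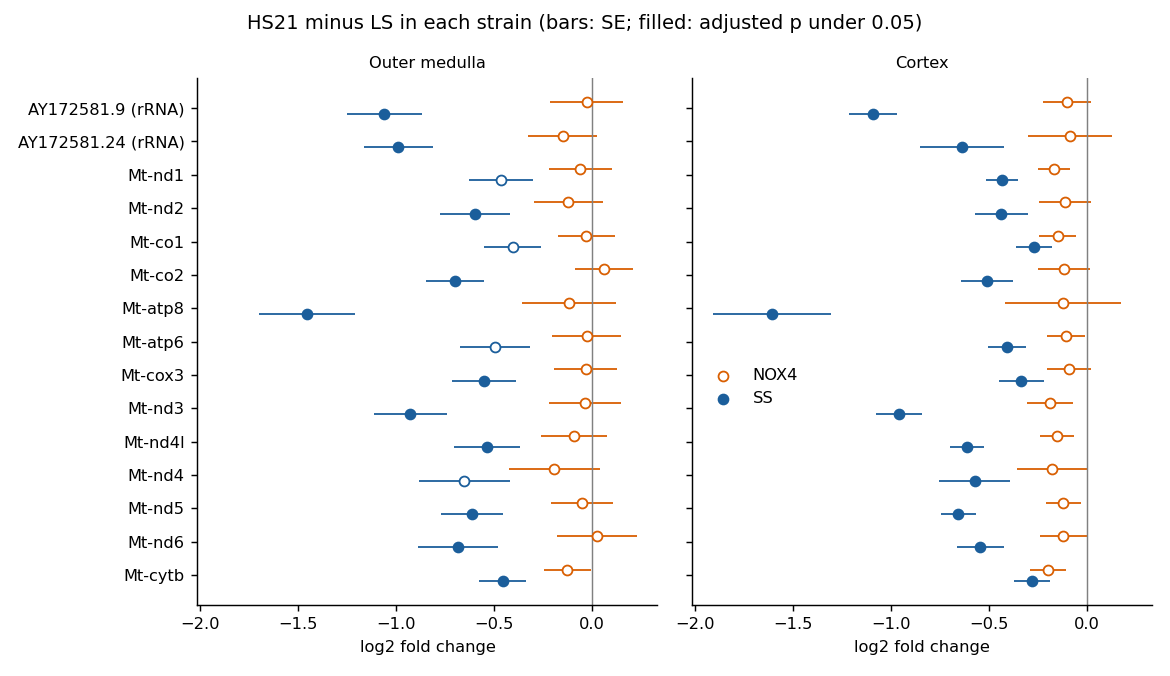
Log2 fold change of HS21 over LS with SE bars for each rRNA and protein gene, NOX4 rats in orange above SS rats in blue, outer medulla left and cortex right, filled where the adjusted p is under 0.05. In SS rats all 13 cortical mRNAs are filled, from -1.61 for Mt-atp8 to -0.27 for Mt-co1, and no symbol of NOX4 rats is filled.

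In SS rats at HS21 against LS, the groups of 13 tested members in the outer medulla and 14 in the cortex did not overlap (12.0% and 13.7% of all genes tested). Without the low-complexity libraries 15 members were lower in the outer medulla and 12 in the cortex, and none was higher. Leaving out SS HS21 library 4 or 3 left 7 or 8 members called in the outer medulla, and leaving out SS HS21 library 2 left 11 in the cortex. With library totals the cortical count was 12, the median of all genes then standing at 0.11. The shares of all genes called in these other fits are not given here.

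Markers of several cell types moved between the same groups, and some ranges overlapped. The 10 proximal tubule segment 1 and 2 markers summed to 18813 to 23121 CPM at HS21 and 16859 to 24150 CPM at LS in cortex. In outer medulla they summed to 377 to 3052 CPM at HS21 and 213 to 1312 CPM at LS. The summed level of the 10 thick ascending limb markers in outer medulla was 9842 to 13804 CPM at HS21 and 15118 to 19623 CPM at LS. Their mean log2(CPM + 1) overlapped, at 8.36 to 8.90 at HS21 and 8.81 to 9.09 at LS. The summed level of the 8 fibroblast and smooth muscle markers was 2101 to 4876 CPM at HS21 and 1450 to 2316 CPM at LS in outer medulla, and 1081 to 1567 CPM and 873 to 1074 CPM in cortex. The 9 macrophage and lymphocyte markers summed to 1491 to 1943 CPM at HS21 and 1018 to 1294 CPM at LS in cortex, and the 6 endothelial markers found to 336 to 374 CPM and 387 to 550 CPM in outer medulla. The 10 proximal tubule segment 3 markers summed to 1425 to 2820 CPM at HS21 and 3200 to 5655 CPM at LS in cortex, with none of these markers at 0 throughout. With the thick ascending limb score as a covariate 16 members were lower in the outer medulla, and with the segment 3 score 17 in the outer medulla and 17 in the cortex. The shares of all genes called in these covariate fits are not given here, so their counts are not read against those of the main fit. The part of cell content in the result was not tested.

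After 7 days of salt few members were called in SS rats. No cortical member was called by edgeR (2.25% of all genes called, 1.07% as lower and 1.17% as higher). At an unadjusted p under 0.05 there were 5 of 28 members, beside 2975 of 15179 genes. DESeq2 called 1 member, with its share of all genes not given here. The mRNA median was 0.04, with Mt-nd2 highest at 0.19 and Mt-atp8 lowest at -0.38. One member was called in the outer medulla, as lower, where 2.37% of all genes were called, 0.817% as lower and 1.55% as higher. AY172581.24 had 325, 347, 291, 385 and 286 CPM at HS7, against 638, 649, 550, 719 and 606 CPM at LS. The groups did not overlap (-0.97, SE 0.18, adjusted p = 0.0125), but without the low-complexity libraries its adjusted p was 0.333 at a log2 fold change of -1.10. That fit lacks 3 of the 5 libraries of each group, so its missing call does not decide the matter. Mt-co1 was at 0.03 and Mt-atp8 at -0.82 (adjusted p = 0.0597). The mRNA median in outer medulla was -0.09 over all libraries and -0.41 without the low-complexity libraries, where no gene was called, and in the cortex it was -0.05 without them.

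In NOX4 rats no member, and no gene at all, was called for either duration of salt in either region by edgeR (0% of genes called in each of these 4 comparisons). At an unadjusted p under 0.05 there was 1 member in the cortex at HS7 and 2 at HS21, beside 782 and 236 of 15179 genes. In the outer medulla there was none at either duration, beside 2162 and 249 of 15799 genes. DESeq2 called no member. AY172581.9 had 534, 574, 656, 616 and 441 CPM at HS21 in the cortex, against 532, 591, 702, 580 and 603 CPM at LS, an overlap of nearly the whole range (-0.10, SE 0.12). Mt-nd3 had 1104, 1102, 1314, 1237 and 1152 CPM at HS21 and 1261, 1332, 1588, 1252 and 1257 CPM at LS (-0.19, SE 0.12). Mt-co1 in the outer medulla had 39034, 37758, 31203, 37593 and 37036 CPM at HS21, against 37237, 37017, 38760, 41194 and 32024 CPM at LS (-0.03, SE 0.15).

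The mRNA medians in NOX4 rats at HS21 were -0.05 in outer medulla and -0.12 in cortex, where all 13 were negative. The lowest mRNA was Mt-nd4 at -0.19 in the outer medulla and Mt-cytb at -0.20 in the cortex, and the highest Mt-co2 at 0.06 in outer medulla and Mt-cox3 at -0.09 in cortex. At HS7 the medians were 0.00 in outer medulla and -0.09 in cortex. Without libraries 3 and 4 of NOX4 rats at HS7, which stood apart in both regions, they were -0.12 in outer medulla and 0.01 in cortex.

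Whether the 21-day change differed between genotypes was tested as an interaction, the change in NOX4 rats minus the change in SS rats. In the cortex 4 members passed, all with a positive difference, where 1.08% of all genes were called, 0.514% with a positive and 0.567% with a negative difference. They were AY172581.9 at 0.99 (SE 0.17, adjusted p = 0.00396), AY172581.16 at 3.37 (SE 0.61, adjusted p = 0.00639), Mt-nd3 at 0.77 (SE 0.17, adjusted p = 0.0233) and Mt-nd5 at 0.53 (SE 0.13, adjusted p = 0.0347). All 13 mRNAs had a positive difference, with a median of 0.39, from Mt-cytb at 0.08 to Mt-atp8 at 1.49 (adjusted p = 0.072). Mt-nd5 did not pass in 15 of 29 alternative settings, while the other 3 passed in all 29.

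No outer medulla member passed the interaction test (0.0253% of all genes called by edgeR). At an unadjusted p under 0.05 there were 10 of 25 members, beside 1467 of 15799 genes. DESeq2 called 4 members among 125 of 15799 genes, and a fit of the 4 compared groups alone called 7 among 268 of 15436 genes. All 13 mRNA differences were positive, with a median of 0.48, from 0.33 for Mt-cytb to 1.33 for Mt-atp8. The interaction shares the LS and HS21 libraries with the diet comparisons above and is not separate support for them.

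The genotypes were next compared at each diet. Under control conditions a few members were lower in NOX4 rats, among them no mRNA of complexes III and IV. In the cortex 8 of 28 were lower and none higher, where 22.0% of all genes were called, 10.3% as lower and 11.7% as higher. Of 25 tested in the outer medulla, 4 were lower and none higher, where 14.8% of all genes were called, 6.05% as lower and 8.80% as higher. The cortical members were AY172581.9, 3 tRNA genes, Mt-nd3, Mt-atp8, Mt-nd4l and Mt-nd5, and those of the outer medulla AY172581.9, AY172581.24, AY172581.16 and Mt-atp8.

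AY172581.9 had 532, 591, 702, 580 and 603 CPM in NOX4 cortex at LS, against the 883 to 1074 CPM of SS cortex listed above (-0.74, SE 0.12, adjusted p = 0.0002). Outer medulla levels were 594, 550, 437, 617 and 438 CPM in NOX4 rats, against 641 to 1093 CPM in SS rats (-0.81, SE 0.19, adjusted p = 0.00646). The genotypes did not overlap in either region. Mt-nd3 was also apart in cortex, with the NOX4 libraries at 1252 to 1588 CPM and the SS libraries at 1705 to 2209 CPM (-0.52, SE 0.12, adjusted p = 0.0024).

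Mt-atp8 had 20.5, 22.5, 34.5, 25.7 and 30.7 CPM in NOX4 cortex at LS, against 28.02 to 121 CPM in SS cortex, where libraries 1 and 5 were highest (-1.31, SE 0.30, adjusted p = 0.00241). In outer medulla it had 17.5, 19.0, 16.6, 24.003 and 13.6 CPM in NOX4 rats and 21.2 to 61.7 CPM in SS rats (-1.06, SE 0.24, adjusted p = 0.00577). The ranges overlapped in both regions, and the level of this gene is uncertain because it shares bases with Mt-atp6. AY172581.16 had 3.38, 2.15, 5.64, 1.64 and 2.68 CPM in NOX4 cortex, against 19.8, 15.4, 18.9, 8.67 and 16.6 CPM in SS cortex (-2.35, SE 0.44, adjusted p = 0.000465).

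Mt-co1 by contrast had 52707, 60032, 61867, 56598 and 56969 CPM in NOX4 cortex at LS, against 57478, 54359, 57112, 51475 and 69997 CPM in SS cortex. The NOX4 values lay within the SS range (-0.01, SE 0.09, adjusted p = 0.94). Mt-cytb was the highest mRNA of this comparison at 0.04, and Mt-nd6 was at -0.20 in cortex and -0.35 in outer medulla without passing.

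Without the low-complexity libraries 5 members were lower in the outer medulla and 7 in the cortex at LS, and none was higher. Shares of all genes called without these libraries are not given here. The 10 segment 3 markers summed to 1172 to 2019 CPM in NOX4 cortex and 3200 to 5655 CPM in SS cortex at LS, and with that score as a covariate 2 cortical members were called, AY172581.9 and Mt-nd3. The calls over all genes were 95 of 15179 in that fit, against 3341 without the covariate, and the mRNA median was -0.39 with it and -0.19 without it. Short nuclear RNAs of 3 annotated classes summed to 79.1 to 93.3 CPM in outer medulla and 75.4 to 88.6 CPM in cortex of NOX4 rats at LS, against 110 to 148 CPM and 117 to 143 CPM in SS rats. Their part in the result was not tested.

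**Figure D4:**
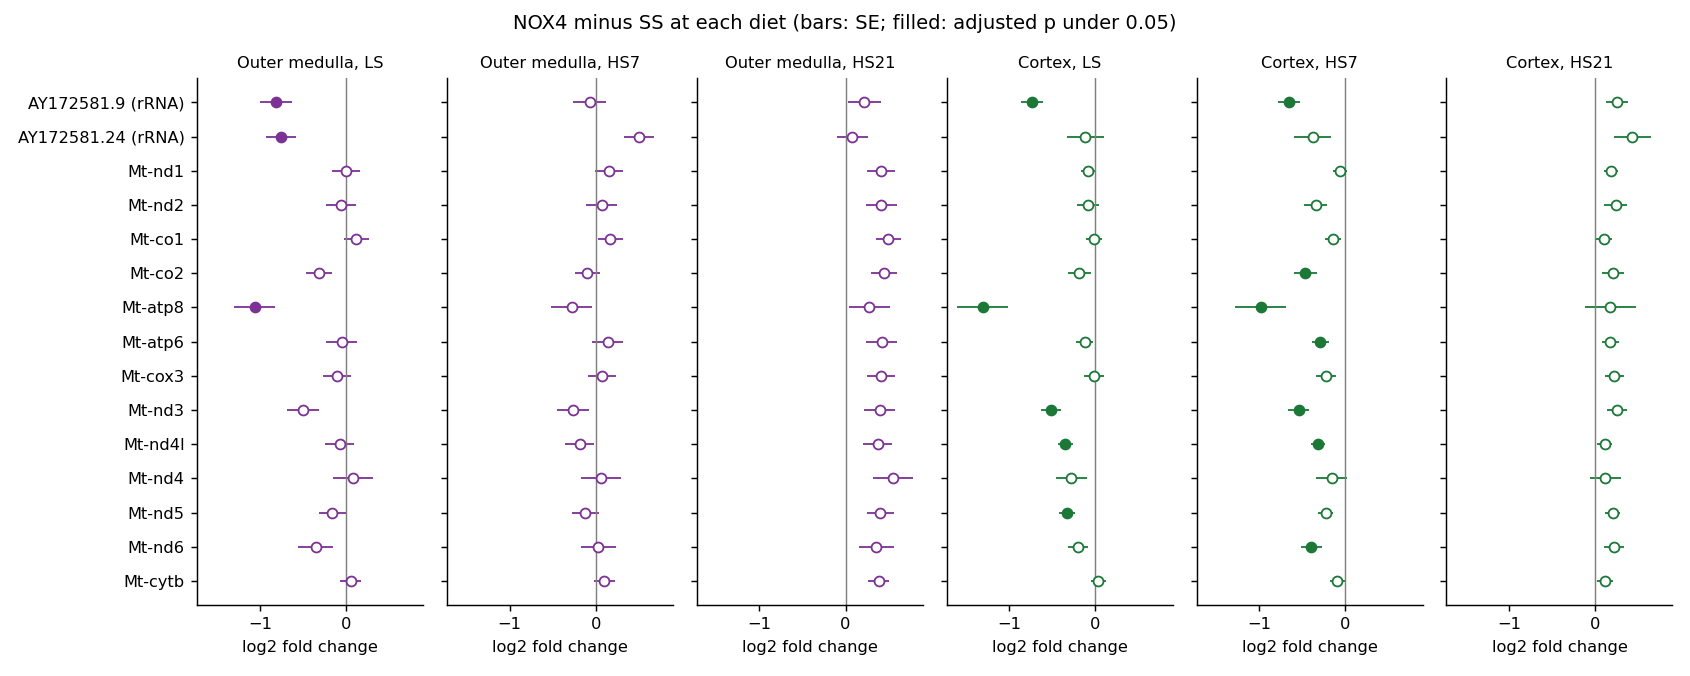
Log2 fold change of NOX4 over SS with SE bars for each rRNA and protein gene at LS, HS7 and HS21, outer medulla in the 3 left panels and cortex in the 3 right panels, filled where the adjusted p is under 0.05. Filled symbols lie on the negative side, in both regions at LS and in cortex at HS7, and at HS21 all 13 mRNAs are positive without passing.

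After 7 days of salt, 8 of 28 cortical members were lower in NOX4 rats and none higher, where 17.4% of all genes were called, 7.77% as lower and 9.61% as higher. None of 25 was called in the outer medulla by edgeR, where 9.61% of all genes were called, 4.39% as lower and 5.23% as higher. There 4 of 25 members had an unadjusted p under 0.05, beside 4049 of 15799 genes. DESeq2 called 2 members, with its share of all genes not given here. Without the low-complexity libraries 9 of 29 cortical members were lower and 1 higher, with the share of all genes called in that fit not given here. AY172581.9 had 698, 600, 470, 408 and 548 CPM in NOX4 cortex, against 822, 922, 648, 1061 and 840 CPM in SS cortex (-0.65, SE 0.12, adjusted p = 0.000924). The ranges overlapped slightly. Mt-nd3 was at -0.54, Mt-nd4l at -0.31 and Mt-co2 at -0.46, with adjusted p of 0.00264, 0.0123 and 0.0164, and Mt-nd1 was closest to 0 at -0.06.

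Mt-co2 had 14738, 13326, 9572, 8578 and 14015 CPM in NOX4 cortex at HS7, against 12328, 18614, 15422, 16635 and 20195 CPM in SS cortex. The 2 lowest values belong to NOX4 libraries 3 and 4, whose mitochondrial shares, 11.1% and 10.4%, were also the lowest of their group. The names of these 2 libraries fall outside the running order of the other cortex libraries. Without these 2 libraries 1 member was called, and in a fit of the 2 groups alone none was. For these fits and those leaving out single libraries, the shares of all genes called are not given here. Leaving out single libraries gave 2 to 11 called members, with 2 without SS library 2, 5 without SS library 5, 4 without NOX4 library 3 and 4 without NOX4 library 4. The outer medulla libraries 3 and 4 of NOX4 rats at HS7 had the highest shares of their group, 13.9% and 14.7%. The thick ascending limb score, a mean log2(CPM + 1), was 7.99 and 8.14 in these 2 and 8.63 to 8.90 in the other 3, and the principal cell score 7.53 and 7.57 and 6.41 to 6.95. The red blood cell score of the cortex libraries 3 and 4 was 2.79 and 3.00, against 4.58 to 5.54 in the other 3, and the fibroblast and smooth muscle score 5.31 and 5.70, against 6.18 to 6.44. Their part in the result was not tested.

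At 21 days no member passed in either region by edgeR (1.63% of all genes called in outer medulla, 0.304% as higher and 1.33% as lower, and 1.00% in cortex, 0.336% as higher and 0.665% as lower), but all 13 mRNAs were higher in NOX4 rats by estimate. The median was 0.41 in outer medulla and 0.18 in cortex. At an unadjusted p under 0.05 there were 12 of 25 members in outer medulla, beside 2805 of 15799 genes. In cortex there were 5 of 28 members, beside 1730 of 15179 genes. Mt-co1 in outer medulla lay at 31203 to 39034 CPM in NOX4 rats and 22129 to 30960 CPM in SS rats, from the values per library given above. The genotypes did not overlap there, yet the adjusted p was 0.0757 (0.49, SE 0.15). Mt-nd4 was highest at 0.55 and Mt-atp8 lowest at 0.28 in outer medulla, and in cortex Mt-nd3 was highest at 0.25 and Mt-co1 lowest at 0.11.

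The count at HS21 changed with the fit, and so did the calls over all genes. In outer medulla DESeq2 called 2 members among 640 of 15799 genes, the fit without the low-complexity libraries 5 among 2297 of 16417, and the fit of these 2 groups alone 10 among 3703 of 15288, all higher in NOX4 rats. In the cortex the fit of the 2 groups alone called 3 among 1237 of 14625 genes. The authors' deposited table, at an adjusted p under 0.05, lists 14 members as higher in NOX4 rats in outer medulla (25.6% of its genes) and 9 in cortex (9.38% of its genes), and none as lower. For SS rats at HS21 against LS the authors' deposited table lists 17 members as lower in outer medulla (13% of its genes) and 18 in cortex (15.1% of its genes), and it lists none for NOX4 rats on either duration of salt. Between HS21 and HS7 in SS rats, the authors' deposited table lists 16 cortical members as lower at HS21 (7.19% of its genes) and none in outer medulla (1.61% of its genes). Its mRNA medians, as log2 fold change of HS7 over HS21, were similar, at 0.50 in outer medulla and 0.49 in cortex.

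Scaling each library to its own mitochondrial mRNA sum shows which members moved relative to the others. In SS rats at HS21 against LS, 7 cortical members fell on that scale and 5 in the outer medulla, where 1 rose. The background is high on this scale, 41.0% of all genes in cortex and 37.4% in outer medulla. Lower in both regions were AY172581.9 (-0.56 in outer medulla and -0.73 in cortex), Mt-atp8 (-0.92 and -1.21), Mt-nd3 (-0.42 and -0.60) and AY172581.16 (-1.92 and -2.27). AY172581.18 rose in the outer medulla (1.75). Mt-nd4l (-0.24) and Mt-nd5 (-0.29) were lower in cortex.

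The same 4 genes were lower relative to the mRNA sum in NOX4 than in SS rats at LS in both regions. AY172581.9 was at -0.81 in outer medulla and -0.68 in cortex, Mt-atp8 at -1.02 and -1.22, Mt-nd3 at -0.48 and -0.46, and AY172581.16 at -2.23 and -2.30. In all, 6 members fell on this scale in each region at LS (8.60% of all genes called in outer medulla and 15.2% in cortex). Both comparisons use the SS LS libraries, so the lists are not independent. Without the low-complexity libraries Mt-nd3 was no longer called on this scale in the outer medulla in either comparison.

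As shares of the mRNA counts, Mt-atp8, an overlapping gene of uncertain level, was highest on average in the SS LS groups. It was 0.0170 ± 0.0020% in outer medulla and 0.0173 ± 0.0029% in cortex of NOX4 rats at LS, against 0.0346 ± 0.0137% and 0.0404 ± 0.0221% in SS rats (SD, n = 5 each). At HS7 it was 0.0162 ± 0.0016% in outer medulla and 0.0182 ± 0.0035% in cortex of NOX4 rats, against 0.0217 ± 0.0095% and 0.0303 ± 0.0148% in SS rats. At HS21 it was 0.0162 ± 0.0022% and 0.0178 ± 0.0037% in NOX4 rats and 0.0184 ± 0.0019% and 0.0175 ± 0.0021% in SS rats. The rRNA share of mitochondrial counts had the same order, 0.850 ± 0.0976% in outer medulla and 0.781 ± 0.0465% in cortex of NOX4 rats at LS, against 1.46 ± 0.237% and 1.03 ± 0.139% in SS rats. Complex IV mRNAs held 57.0 ± 0.888% of mRNA counts in outer medulla and 58.5 ± 0.868% in cortex, over 30 libraries each. The 7 complex I mRNAs held 16.7% to 18.2% in the 5 SS cortex libraries at HS21 and 18.5% to 19.6% in those at LS, without overlap.

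**Figure D5:**
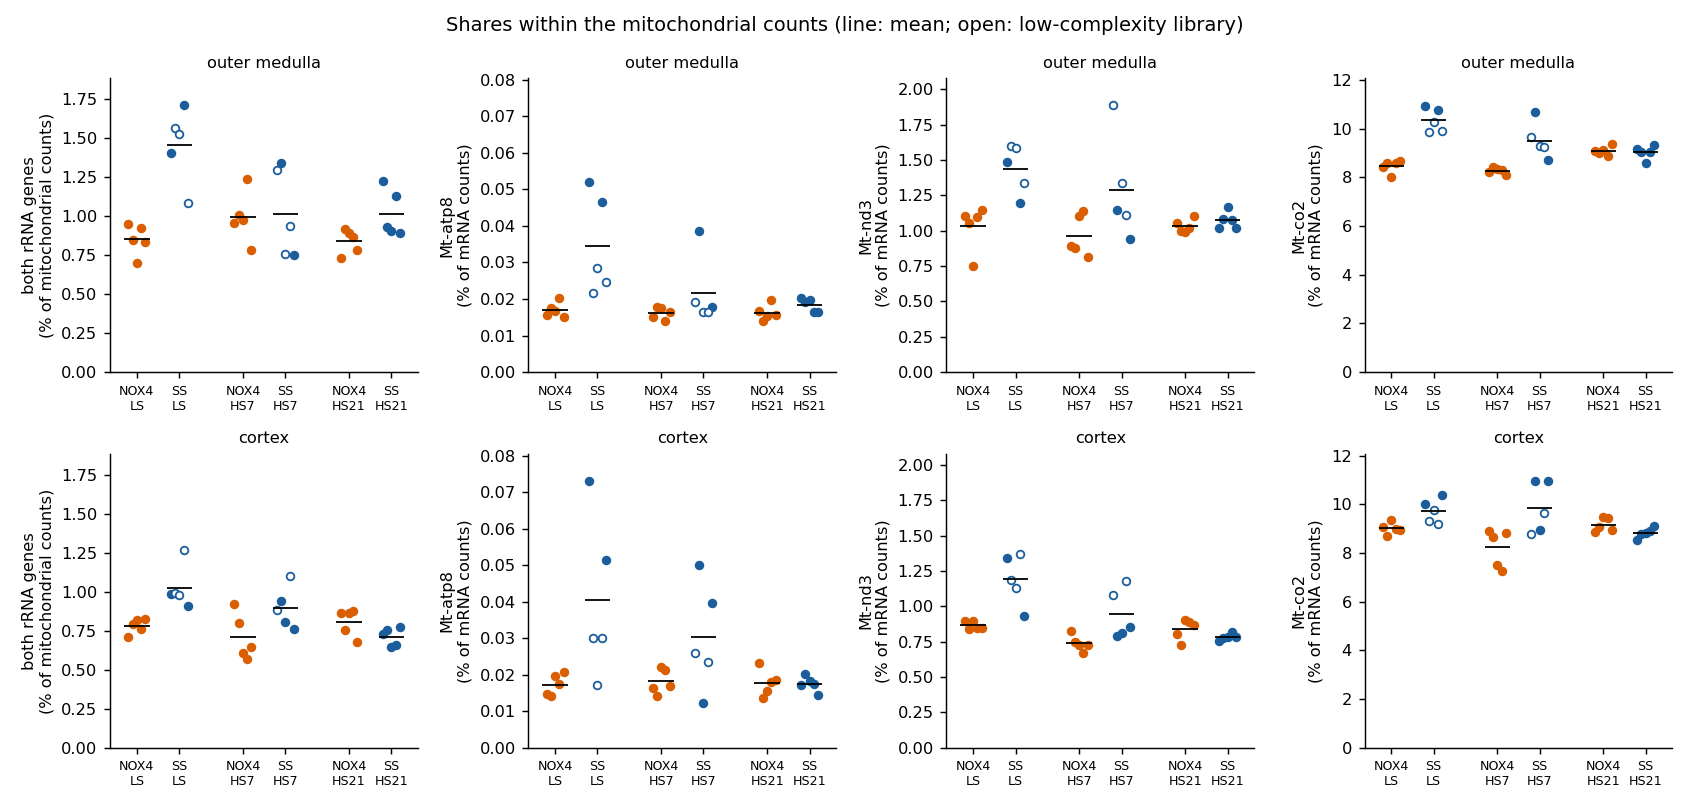
Share of both rRNA genes in the mitochondrial counts and shares of Mt-atp8, Mt-nd3 and Mt-co2 in the mitochondrial mRNA counts (percent), 1 point per library, NOX4 in orange and SS in blue, outer medulla above and cortex below, lines at group means, open symbols for low-complexity libraries. The SS LS groups are highest in rRNA, Mt-atp8 and Mt-nd3, with mean Mt-atp8 shares of 0.0346% in outer medulla and 0.0404% in cortex.

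Nuclear genes of the same complexes were set beside the members, from lists of known subunits. In SS rats at HS21 against LS they moved in both directions. Over all genes, 5.29% rose and 4.56% fell in outer medulla and 8.41% rose and 8.04% fell in cortex. Of 31 tested nuclear complex I genes (of 36 listed), 1 rose and 3 fell in outer medulla and 4 rose and 7 fell in cortex, with medians of -0.12 and -0.06. Ndufb6, an accessory subunit, rose to 100.1 CPM at HS21 in cortex, against 67.2 CPM at LS (0.57, SE 0.13, adjusted p = 0.00353), and Ndufs3, a subunit of the matrix arm, fell in outer medulla (-0.38, SE 0.09, adjusted p = 0.0115). Of 34 tested genes of complexes III to V, 2 rose and 6 fell in outer medulla and 3 rose and 7 fell in cortex. Cox7b fell in both (-0.60 and -0.42) and so did Cox6c (-0.56 and -0.39), both small complex IV subunits.

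At LS the nuclear lists ran opposite to the members called: in NOX4 rats 11 of 31 complex I genes were higher in outer medulla and 9 in cortex, and 15 of 34 genes of complexes III to V in each region, with none lower. Cox8a, a small complex IV subunit, averaged 566 CPM in outer medulla and 708 CPM in cortex of NOX4 rats, against 298 and 467 CPM in SS rats (0.89, SE 0.15, adjusted p = 0.000596 and 0.60, SE 0.10, adjusted p = 0.000172). At HS21 9 complex I genes were higher in NOX4 outer medulla and 2 in cortex, and of complexes III to V 1 and 0. Over all genes, 8.80% were called higher in NOX4 outer medulla and 11.7% in cortex at LS, and 0.304% and 0.336% at HS21.

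Factors that act on mitochondrial DNA and RNA were called in SS cortex at HS21 about as often as all genes (16.5%). Of 21 tested genes of mitochondrial DNA transcription and replication, 3 fell in SS cortex at HS21 and none in outer medulla. They were Tfb2m, the transcription factor that opens the promoter, which averaged 32.7 CPM at HS21 and 44.3 CPM at LS (-0.44, SE 0.09, adjusted p = 0.00122), Rrm2b (-0.56), a ribonucleotide reductase subunit that supplies nucleotides, and Mterfd1 (-0.32). Tfb2m was also lower in NOX4 than in SS cortex at LS, at 32.1 and 44.3 CPM (-0.47, SE 0.09, adjusted p = 0.000444), a comparison with the same SS libraries.

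Of 35 tested genes of mitochondrial RNA processing and stability, 1 rose and 4 fell in SS cortex at HS21 and 1 rose and 2 fell in outer medulla. Slirp, a partner of the RNA-binding protein that stabilises mitochondrial mRNAs, averaged 14.0 CPM at HS21 and 20.5 CPM at LS in cortex (-0.56, SE 0.12, adjusted p = 0.00333). Pnpt1, a polynucleotide phosphorylase that acts in mitochondrial RNA turnover, fell by 0.32 in cortex, and in outer medulla its helicase partner Supv3l1 fell by 0.36 and the mitochondrial poly(A) polymerase Mtpap by 0.39. At LS, 5 of the 35 genes were lower and 1 higher in NOX4 cortex, led by Pnpt1 (-0.39) and Slirp (-0.60), and 5 were higher and none lower in NOX4 outer medulla. Of all genes at LS, 10.3% were called lower and 11.7% higher in NOX4 cortex, and 6.05% and 8.80% in outer medulla.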

How the data were processed

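RNA was extracted from snap-frozen kidney cortex and outer medulla with Trizol and a cleanup column and sequenced after poly(A) enrichment, per the labels' protocols. The submitters' processing notes name HISAT2 2.0.5, StringTie 1.3.3b and featureCounts 1.5.0-p3, with no role stated for any of them. Genome build, strandedness and treatment of multiply mapped reads are not given in the sources used here. The deposited table holds raw read counts per gene as the authors counted them, with log2 fold changes and p-values from the authors' own comparisons, per the file headers. These were used only where named as the authors' deposited table.

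Members and gene lists were chosen with earlier results of these data known. Counts were tested with edgeR 4.0.16 (quasi-likelihood, TMM scaling, filterByExpr) in R 4.3.3, in 1 fit per region over 30 libraries with 6 groups, or over all 60 libraries for the regions. P-values were adjusted over all genes tested (15799 in outer medulla, 15179 in cortex, 16326 for both regions) by Benjamini-Hochberg, with calls at 0.05. The scripts were tested on simulated data. Members were named by rule: the 4 smallest adjusted p per comparison, the highest and lowest mRNA, Mt-co1, Mt-nd6 and both rRNA genes, and up to 3 called genes per nuclear list. Genes listed by name as the members called in a comparison go beyond that rule. CPM values use TMM factors over all libraries. A second fit used the summed mitochondrial mRNA counts in place of TMM. Low-complexity libraries detect under 16500 genes at 10 M counts. Alternatives included DESeq2 1.42.0, other scalings and filters, a replicate block, marker scores as covariates and leaving out libraries. Where no share of all genes called is printed for an alternative, its count of members is not read as a result about them. Replicate numbers were not shown to pair the samples: no comparison had every same-numbered pair correlating above 0.1. Between regions, 7 of 15 libraries in SS and 1 of 15 in NOX4 rats correlated best with the library of their own number. Pairing between regions was therefore not settled, and the main region tests took the libraries as independent.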

Additional observations from a re-analysis of the deposited data

Results flagged for a closer look

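A total of 96 sets of 5 libraries were screened for a single value far from the others, and 5 were picked out, about the 1 in 20 that chance gives. The mitochondrial share of NOX4 outer medulla at HS21 was 9.60% in library 3, against 11.5% to 12.1% in the others. The rRNA share of mitochondrial counts in SS cortex at LS was 1.27% in library 4, against 0.906% to 0.994%. The tRNA share in SS cortex at HS21 was 0.0775% in library 2, against 0.0671% to 0.0697%. In SS outer medulla at HS7, the Mt-atp8 share of mRNA counts was 0.0386% in library 2, against 0.0165% to 0.0191%, and the Mt-nd6 share was 1.06% in library 3, against 0.791% to 0.854%.

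The change from LS to HS21 in cortex differed between the genotypes, by the interaction test, for AY172581.9 (0.99 on the log2 scale, NOX4 minus SS), AY172581.16 (3.37), Mt-nd3 (0.77) and Mt-nd5 (0.53). Mt-nd5 did not pass in 15 of 29 alternative settings. As LS has no stated day, diet and time cannot be told apart in this change.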

How the results depend on the processing

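For the 33 results with the smallest adjusted p of their comparison, no direction changed in 647 checks, and 25 passed the threshold under every alternative; some other mRNAs changed sign with library totals, as given for the regions. Of 215 other counts and shares recomputed, 191 stayed within 1.5 times or 1 SD. The counts of called members that moved were as follows. With DESeq2, SS cortex at HS7 gave 1 and SS outer medulla at HS7 gave 3, NOX4 against SS in outer medulla gave 2 at HS7 and 2 at HS21, and the outer medulla interaction gave 4. With compared groups alone, the genotype comparison gave 0 in cortex at HS7, 3 in cortex at HS21 and 10 in outer medulla at HS21, SS outer medulla at HS7 gave 0 and the outer medulla interaction 7. Without low-complexity libraries, NOX4 against SS in outer medulla gave 1 at HS7 and 5 at HS21, SS outer medulla at HS7 gave 0 and the outer medulla interaction 2; on the mitochondrial mRNA scale these libraries' removal gave 1 for the genotypes at HS7 and 0 for SS at HS7 in outer medulla. With the segment 3 covariate the genotype count in cortex at LS was 2, and without NOX4 cortex libraries 3 and 4 that at HS7 was 1. With library totals, 7 members were called between genotypes in outer medulla at LS and 12 between regions in NOX4 rats; the median of all genes then stood at -0.10 and 0.36. These library totals, the covariates for the salt comparisons and the low-complexity check of the mRNA scale were added after seeing the data. The cause of these moves was not tested.

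With the replicate block, NOX4 against SS in outer medulla at HS7 gave 1 call; no other count moved by over 1.5 times, and the numbers are not shown to pair the samples.

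Leaving out 1 library at a time, the called members ranged from 6 to 9, 2 to 11 and 0 to 0 between genotypes in cortex at LS, HS7 and HS21, and from 4 to 5, 0 to 2 and 0 to 3 in outer medulla. In SS rats they ranged from 0 to 2 at HS7 and 11 to 16 at HS21 in cortex, and from 1 to 4 and 7 to 14 in outer medulla. In NOX4 rats they stayed at 0. Between regions the range was 22 to 25 in SS and 17 to 22 in NOX4 rats, and the interaction gave 3 to 5 in cortex and 0 in outer medulla. Leaving out the 10 most abundant nuclear genes raised the mitochondrial share to 13.8% in NOX4 cortex at HS21, 12.8% in SS cortex at HS21 and 15.5% in SS cortex at LS. Low counts limit the tRNA genes, of which 9 in cortex and 12 in outer medulla were not tested.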
